A study of Mus musculus with 8 samples.

Results

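DNA methylation in mammals is written and removed by a small set of enzymes, and their transcripts were followed here as mouse embryonic stem (ES) cells started to differentiate. The set holds 10 genes: *Dnmt1*, *Uhrf1* and *Uhrf2* of maintenance methylation, *Dnmt3a*, *Dnmt3b* and *Dnmt3l* of de novo methylation, and *Tet1*, *Tet2*, *Tet3* and *Tdg* of oxidation and removal. Their members were found as the probes that are not controls and that carry one of these gene names, which gave 22 probes of the 55681 on the array and 10 of the 36406 names. E14Tg2A.4 mouse ES cells, a feeder-independent line from a male blastocyst, were kept without treatment (untreated) or received 1 µM all-trans retinoic acid (RA) for 72 h. RA was given in medium without leukemia inhibitory factor, the cytokine that keeps ES cells self-renewing, so the comparison holds the addition of RA and the loss of the cytokine together. Total RNA of 4 samples of each condition was primed from the poly(A) tail, labelled with Cy3 and hybridized to 1-colour Agilent 60-mer arrays, and p-values measure the spread between these samples.

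Dnmt1 copies methylation of CpG sites onto the new strand after replication, and Uhrf1 brings it to hemimethylated DNA. Dnmt3a and Dnmt3b methylate new sites, and Dnmt3l, which has no catalytic activity of its own, stimulates them and is typical of ES cells and germ cells. The Tet proteins oxidize 5-methylcytosine, and Tdg is a glycosylase that cuts out the further oxidized bases so that base excision repair can restore cytosine. ES cells are known for high levels of *Tet1*, *Tet2*, *Dnmt3b* and *Dnmt3l*.

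On these arrays 4 of the 10 genes fell after RA. *Tet1* fell 10.9-fold, *Tet2* 3.93-fold, *Dnmt3l* 3.91-fold and *Dnmt3b* 3.59-fold. *Tdg* rose 1.59-fold at its brightest probe, and *Dnmt1*, *Uhrf1*, *Uhrf2*, *Dnmt3a* and *Tet3* did not pass the test at theirs. A call is an adjusted p under 0.05 (limma, Benjamini-Hochberg over all 55681 probes) with a change above 1.5-fold, and each gene is given by its brightest probe, the one with the highest mean level. By this rule 12.9% of all probes were higher after RA and 21.6% were lower, so 1 member of 10 higher and 4 of 10 lower stand beside those shares. Among the 32378 probes above background on all arrays of at least 1 condition, the shares were 20.9% higher and 31.0% lower. The 4 RA arrays did not overlap the 4 untreated arrays for 7 of the 10 genes, against 37.7% of all probes. Of the 22 probes, 21 were well above background on all 8 arrays, 4 were called higher, 10 were called lower and 8 were not called.

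Values are log2 signals relative to the 75th percentile of the same array, called log2 levels below, and they compare 1 probe between arrays and not different probes with each other. Each array had 33629 to 37175 of its 59305 spots well above background and none saturated, and the number of arrays limits the precision. Taken over all probes, the log2 fold change had a median of -0.28 on this scale and -0.0026 after quantile normalization, and that of the members' brightest probes was -0.55. With quantile normalization 8152 probes were higher and 8704 lower, against 7196 and 12044 here.

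The cells carried the markers of their label. All 8 ES cell markers examined, *Pou5f1* and *Nanog* among them, were well above background on the untreated arrays, and all 8 were called lower after RA, with a median log2 fold change of -4.21. Their summed level relative to the 75th percentile was 449 to 624 on the untreated arrays and 45.6 to 120 on the RA arrays. All 8 RA response genes and all 8 primitive endoderm markers were called higher. Of 7 neural markers on the array 2 were higher and 1 was lower. Of 8 fibroblast or feeder markers 7 were higher, and their summed level went from 1.21 to 1.97 on the untreated arrays to 31.3 to 49.7 on the RA arrays, where all 8 were above background. In such bulk RNA fewer cells of a type and less RNA per cell cannot be told apart, and the part of any other cell type in the changes below was not tested.

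**Figure D1:**
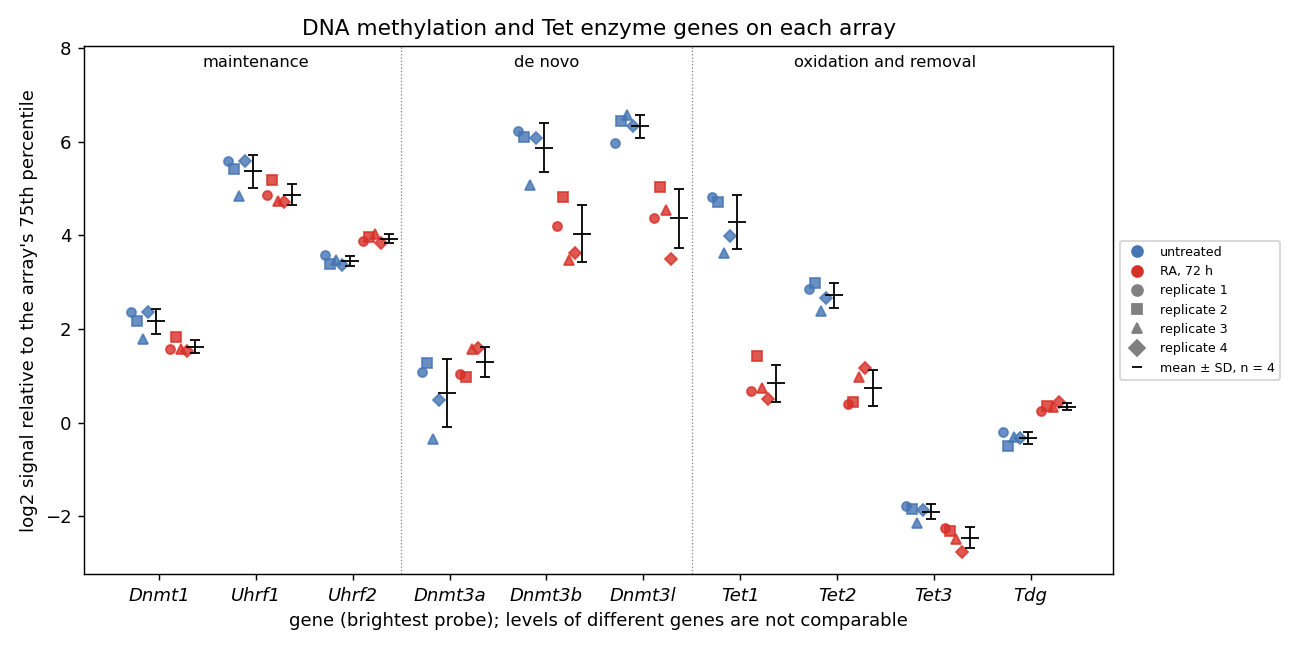
Log2 signal relative to the array's 75th percentile (vertical axis) of the brightest probe of each of the 10 genes (horizontal axis) on the 4 untreated (blue) and 4 RA arrays (red). Marker shapes give the replicate and black bars the mean ± SD. *Dnmt3b*, *Dnmt3l*, *Tet1* and *Tet2* lie lower on all RA arrays than on any untreated array, while the conditions overlap for *Dnmt1*, *Uhrf1* and *Dnmt3a*.

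*Tet1*, the dominant 5-methylcytosine oxidase of ES cells, had the largest change of the 10 genes. Its log2 level was 4.83, 4.71, 3.62 and 3.99 in untreated replicates 1 to 4 and 0.68, 1.43, 0.74 and 0.51 in RA replicates 1 to 4. All untreated arrays lay more than 2 log2 units above all RA arrays. The log2 fold change was -3.45 ± 0.32 (SE, n = 4 and 4, limma adjusted p = 5.32e-05). A probe nearer to the start of the gene, A_55_P2123002 at chr10:62301856-62301915 (mm9, minus strand), changed by -3.59 ± 0.32 (adjusted p = 4.84e-05), and the third, A_51_P512172, by -3.16 ± 0.28 (adjusted p = 4.64e-05). All 3 probes of *Tet1* were thus called lower.

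*Tet2*, the other Tet enzyme that ES cells express strongly, stood at 2.85, 2.99, 2.38 and 2.67 in untreated replicates 1 to 4. After RA its log2 level was 0.41, 0.44, 0.98 and 1.17. There was no overlap, and RA replicates 3 and 4 kept higher levels than RA replicates 1 and 2. The log2 fold change was -1.97 ± 0.23 (SE, n = 4 and 4, limma adjusted p = 0.00018). The probe A_55_P2051405 changed by -1.91 (adjusted p = 0.000254). The dimmest *Tet2* probe, A_55_P2074075, changed by -2.47 (adjusted p = 0.00024), and by -1.29 on the authors' processed values. The annotation does not assign this probe to the RefSeq transcript of the other *Tet2* probes, and which transcript it detects was not tested.

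*Tet3*, which is prominent in the oocyte and in neural cells, gave opposite directions at its probes. Its 3 probes are shown here because a reader needs them to judge which stretch of the transcript each one reports, and the array's annotation assigns all of them to the same RefSeq transcript. They are given 5′ to 3′ with their mm9 positions on the minus strand, so that the third lies nearest to the start of the gene and the second nearest to its end, and each sequence has at least 1 reading frame without a stop codon.
Tet3 A_55_P2175260, chr6:83319720-83319779: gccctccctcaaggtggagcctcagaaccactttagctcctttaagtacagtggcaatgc
Tet3 A_51_P199339, chr6:83318731-83318790: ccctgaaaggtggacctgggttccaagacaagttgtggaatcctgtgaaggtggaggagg
Tet3 A_52_P491273, chr6:83352743-83352802: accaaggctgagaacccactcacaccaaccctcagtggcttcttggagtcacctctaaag

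The brightest *Tet3* probe, A_55_P2175260, read -1.77, -1.84, -2.13 and -1.86 in untreated replicates 1 to 4 and -2.25, -2.31, -2.48 and -2.77 in RA replicates 1 to 4. It was lower on every RA array, by a log2 fold change of -0.55 ± 0.16 (SE, n = 4 and 4, limma adjusted p = 0.0272), which is 1.47-fold and under the fold limit. With the replicate number as a block its adjusted p was 0.0554. The probe A_51_P199339, which lies near it towards the end of the gene, read -4.77, -5.02, -4.20 and -4.56 in untreated cells and -2.95, -2.55, -2.90 and -2.58 after RA, above background on all 8 arrays. It was called higher, by 1.90 ± 0.20 (adjusted p = 0.000129). The probe A_52_P491273 was above background on 1 of 4 untreated arrays and on all 4 RA arrays and was also called higher, by 1.48 ± 0.16 (adjusted p = 0.000117). With a normexp background correction these rises were smaller, 0.78 and 0.46 on the log2 scale, and the second no longer passed the fold limit. After normexp and quantile normalization they were 0.98 and 0.69, and on the authors' processed values 0.98 and 0.69, all called higher. Within each array the log2 difference between the first probe and A_51_P199339 was 2.74 ± 0.49 (SD, n = 4) in untreated cells and 0.29 ± 0.37 (SD, n = 4) after RA. Which transcript forms the probes detect was not tested, so no direction is given for *Tet3* as a gene.

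*Tdg* also differed between probes. At its brightest probe, A_55_P2121364, the log2 level was -0.19, -0.49, -0.30 and -0.32 in untreated cells and 0.25, 0.35, 0.34 and 0.44 after RA. All RA arrays were above all untreated arrays, with a log2 fold change of 0.67 ± 0.13 (SE, n = 4 and 4, limma adjusted p = 0.00356). A_55_P2044091 changed by 0.06 ± 0.14 (adjusted p = 0.725) and A_66_P116265 by 0.04 ± 0.16 (adjusted p = 0.85). Near-identical copies of *Tdg* exist, and the annotation of A_55_P2044091, whose sequence follows, includes a non-coding transcript beside those of *Tdg*.
Tdg A_55_P2044091, chr10:82110701-82110760: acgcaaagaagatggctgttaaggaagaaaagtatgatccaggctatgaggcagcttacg
The means of this probe and of the brightest one were so close that leaving out RA replicate 2 or RA replicate 4 made it the brightest probe, which turned the value for *Tdg* to 0.07 and 0.10 and ended the call. Within slide 2 it also became the brightest, with a change of 0.16, so the rise of *Tdg* rests on a single probe.

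**Figure D2:**
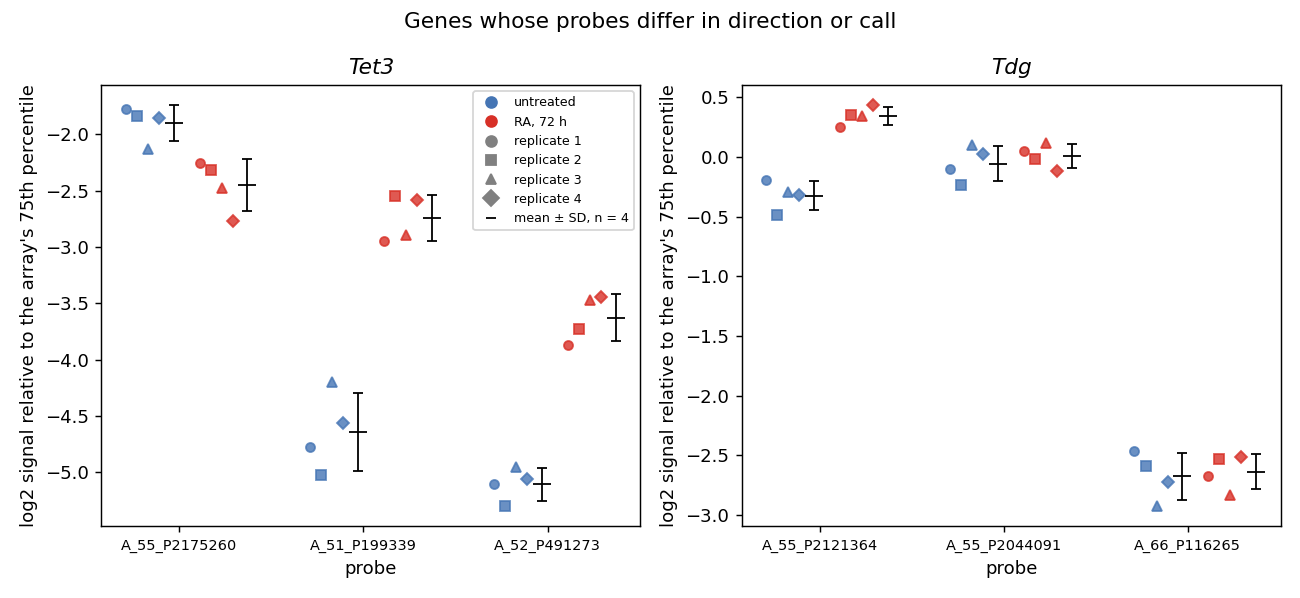
Log2 signal relative to the array's 75th percentile (vertical axis) at the 3 probes of *Tet3* (left) and the 3 probes of *Tdg* (right) on untreated (blue) and RA arrays (red), with marker shapes for replicates and black bars for the mean ± SD. The first *Tet3* probe is lower and the other *Tet3* probes are higher after RA, and *Tdg* differs between the conditions at its first probe, A_55_P2121364.

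The de novo genes split into *Dnmt3b* and *Dnmt3l*, which fell, and *Dnmt3a*, which did not pass the test. *Dnmt3b* read 6.24, 6.11, 5.09 and 6.08 in untreated replicates 1 to 4 and 4.20, 4.82, 3.49 and 3.63 after RA. Untreated replicate 3 was the lowest untreated array and RA replicate 2 the highest RA array, and the conditions stayed apart by a small margin. The log2 fold change was -1.84 ± 0.35 (SE, n = 4 and 4, limma adjusted p = 0.00325). Its other probes changed by -2.0 ± 0.36 (A_55_P1975903, adjusted p = 0.00235) and -1.85 ± 0.37 (A_55_P2008874, adjusted p = 0.00378), so all 3 were called lower. Within slide 1, with 2 arrays a condition, the brightest probe missed the threshold (-1.74, adjusted p = 0.0586).

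*Dnmt3l*, the catalytically inactive partner of the de novo enzymes, was measured by 1 probe. Its log2 level was 5.98, 6.44, 6.57 and 6.33 in untreated cells and 4.37, 5.04, 4.54 and 3.51 after RA. The untreated arrays were close together and well above all RA arrays, which spread over more than 1 log2 unit. Its log2 fold change was -1.97 ± 0.31 (SE, n = 4 and 4, limma adjusted p = 0.00102).

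*Dnmt3a* was likewise measured by 1 probe, which the annotation gives to both its long and its short RefSeq transcript. It read 1.09, 1.28, -0.34 and 0.48 in untreated replicates 1 to 4 and 1.05, 0.99, 1.56 and 1.59 after RA. The conditions overlapped, and the untreated arrays spread over more than 1.5 log2 units. The log2 fold change was 0.67 ± 0.35 (SE, n = 4 and 4, limma adjusted p = 0.173). Without untreated replicate 3 it was 0.34, and the gene was called under none of the alternatives.

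The maintenance genes *Dnmt1*, *Uhrf1* and *Uhrf2* were not called at their brightest probes, and *Uhrf2* was called higher at its dimmer one. *Dnmt1* stood at 2.36, 2.16, 1.79 and 2.36 in untreated replicates 1 to 4 and at 1.56, 1.84, 1.57 and 1.53 after RA. Untreated replicate 3 lay below RA replicate 2, so the conditions overlapped. The log2 fold change was -0.54 ± 0.17 (SE, n = 4 and 4, limma adjusted p = 0.0345), or 1.46-fold and under the fold limit, and with the replicate block the adjusted p was 0.0705.

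*Uhrf1*, the factor that recruits Dnmt1, read 5.60, 5.43, 4.85 and 5.60 in untreated cells and 4.87, 5.19, 4.73 and 4.71 after RA. Again untreated replicate 3 was low and RA replicate 2 high, and the conditions overlapped. It changed by a log2 value of -0.49 ± 0.21 (SE, n = 4 and 4, limma adjusted p = 0.0959). Its dimmer probe A_66_P120074 changed by -0.77 ± 0.27 (adjusted p = 0.0514), and by the same value with an adjusted p of 0.0348 in the replicate block and 0.0206 with the slide as a block, and it was called lower in both and with normexp (-0.68, adjusted p = 0.0162). It was not called with quantile normalization (-0.72, adjusted p = 0.0899), after normexp and quantile normalization (-0.62, adjusted p = 0.0597) or on the authors' processed values (-0.62, adjusted p = 0.0598). The mean of both probes was called lower too, at -0.63 (adjusted p = 0.0426).

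*Uhrf2*, the relative of *Uhrf1* that does not replace it in maintenance, went the other way. The brightest probe read 3.59, 3.40, 3.47 and 3.37 in untreated cells and 3.89, 3.98, 4.04 and 3.84 after RA. Every RA array was above every untreated array, but the log2 fold change of 0.48 ± 0.13 (SE, n = 4 and 4, limma adjusted p = 0.0174) was under the fold limit, and the adjusted p was 0.0647 with the replicate block. Quantile normalization gave 0.64 and the authors' processed values 0.61, both called higher. The probe A_52_P220485 read -0.45, -0.40, 0.51 and -0.26 in untreated cells and 1.03, 1.20, 1.12 and 1.14 after RA. This probe was called higher, by 1.27 ± 0.22 (adjusted p = 0.00188).

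The same arrays stood apart for several members. Untreated replicate 3 had the lowest untreated level at the brightest probes of *Dnmt1*, *Uhrf1*, *Dnmt3a*, *Dnmt3b*, *Tet1*, *Tet2* and *Tet3*. Its level of *Dnmt3l* was instead the highest of the untreated arrays, at 6.57 against 5.98 to 6.44. The *Tet1* probe A_51_P512172 was lowest in untreated replicate 1, at 1.47 against 1.69 in replicate 3. RA replicate 2 had the highest RA level for *Dnmt1*, *Uhrf1*, *Dnmt3b*, *Dnmt3l* and *Tet1*. The summed ES cell markers were also lowest among untreated arrays in replicate 3, at 449 against 581 to 624, and highest among RA arrays in replicate 2, at 120 against 45.6 to 71.0, and their part in the members' values was not tested. The summed RA response, primitive endoderm and neural markers were lowest among untreated arrays in replicate 3 as well, at 7.95, 9.18 and 6.12. Its summed fibroblast or feeder markers were the highest of the untreated arrays, at 1.97 against 1.21 to 1.96, and its 75th percentile, a log2 intensity of 9.999, was the highest of the untreated arrays. Without untreated replicate 3 the number of members called lower was 7, with *Dnmt1* (-0.67), *Uhrf1* (-0.67) and the brightest probe of *Tet3* (-0.63) added, and it was also 7 when RA replicate 2 was left out with it. Leaving out RA replicate 2 alone gave 6.

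**Figure D3:**
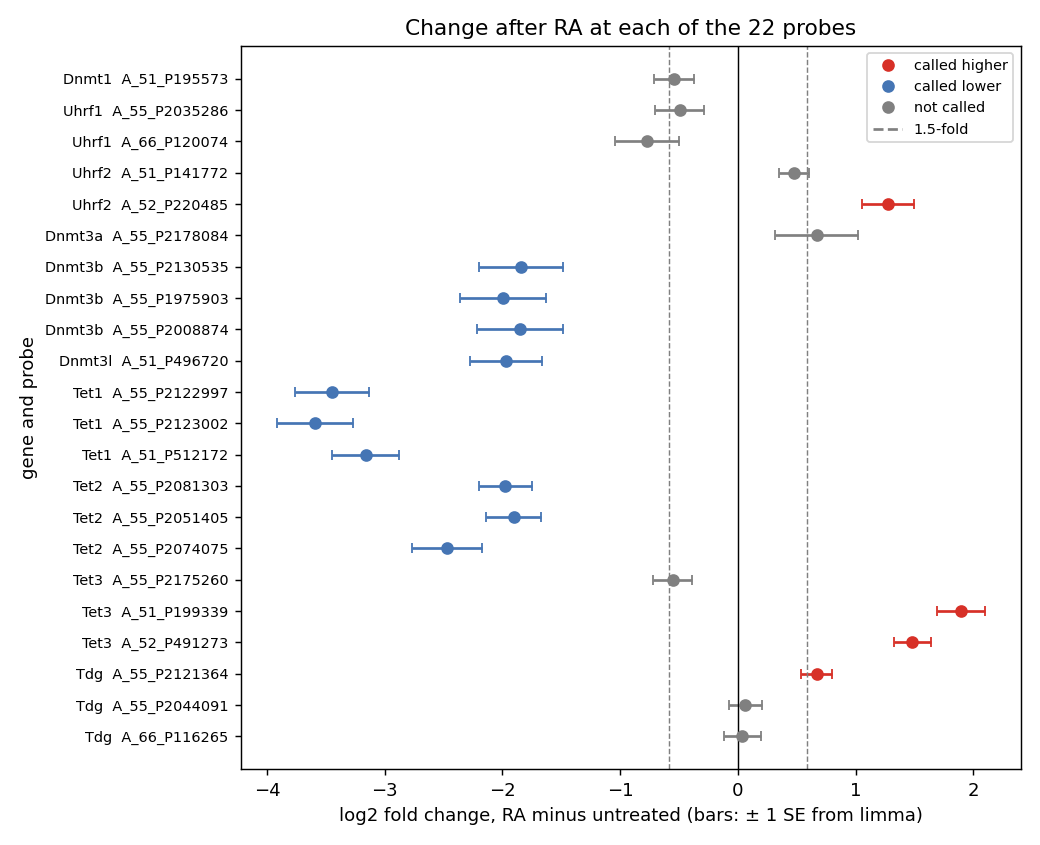
Log2 fold change, RA minus untreated (horizontal axis, bars ± 1 SE from limma), at each of the 22 probes (vertical axis), coloured by call, with dashed lines at 1.5-fold. All probes of *Dnmt3b*, *Dnmt3l*, *Tet1* and *Tet2* are called lower, and *Uhrf2*, *Tet3* and *Tdg* each have at least 1 probe called higher beside 1 that is not.

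The balance between enzymes was compared as the log2 ratio of a pair's brightest probes on the same array, which does not depend on how arrays are scaled to the percentile. For 8 pairs the change of this ratio was tested by an exact two-sided permutation test over the 8 arrays, whose smallest possible p is 0.0286, with Benjamini-Hochberg adjustment over the 8 pairs. The conditions did not overlap for 7 pairs, each at that smallest p (adjusted p = 0.0327). With same-numbered arrays paired, a sign-flip test gave these 7 an exact p of 0.125, the smallest that 4 pairs allow. The exception, where the conditions overlapped, was *Uhrf1* over *Dnmt1*. Within slide 1 and within slide 2, which hold 2 arrays of each condition and were given no test, each of the other 7 ratios was lower after RA as well, from -0.77 for *Uhrf1* over *Uhrf2* to -3.28 for *Dnmt3l* over *Dnmt3a*, both on slide 1.

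*Dnmt3b* decreased by 2.51 log2 units against *Dnmt3a*, or 5.70-fold (exact permutation p = 0.0286, n = 4 and 4). *Dnmt3l* decreased by 2.64 against *Dnmt3a*, or 6.21-fold. Against *Dnmt1* *Dnmt3b* decreased by 1.30, or 2.46-fold. No ratio of *Dnmt3b* to *Dnmt3l* was tested.

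*Uhrf1* over *Dnmt1* differed between the conditions by 0.05, with an SD of 0.09 in each condition (exact permutation p = 0.486, n = 4 and 4). With quantile normalization the difference was 0.22 and on the authors' processed values 0.23, both at p = 0.0286 in the exact permutation test, so the size stayed under 1.5-fold and the test depended on the setting. *Uhrf1* over *Uhrf2* decreased by 0.97, or 1.96-fold.

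Among the Tet genes, *Tet1* decreased by 1.48 against *Tet2*, or 2.78-fold. Against the brightest *Tet3* probe *Tet1* decreased by 2.90, or 7.45-fold, and *Tet2* by 1.42, or 2.68-fold. With the *Tet3* probe A_51_P199339 in place of the brightest one, an alternative chosen after its values had been seen, these ratios decreased by 5.35 and 3.87. Both sizes depend on the background correction, since the log2 rise at this probe was 1.90 here and 0.78 with normexp, for which these ratios were not computed.

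**Figure D4:**
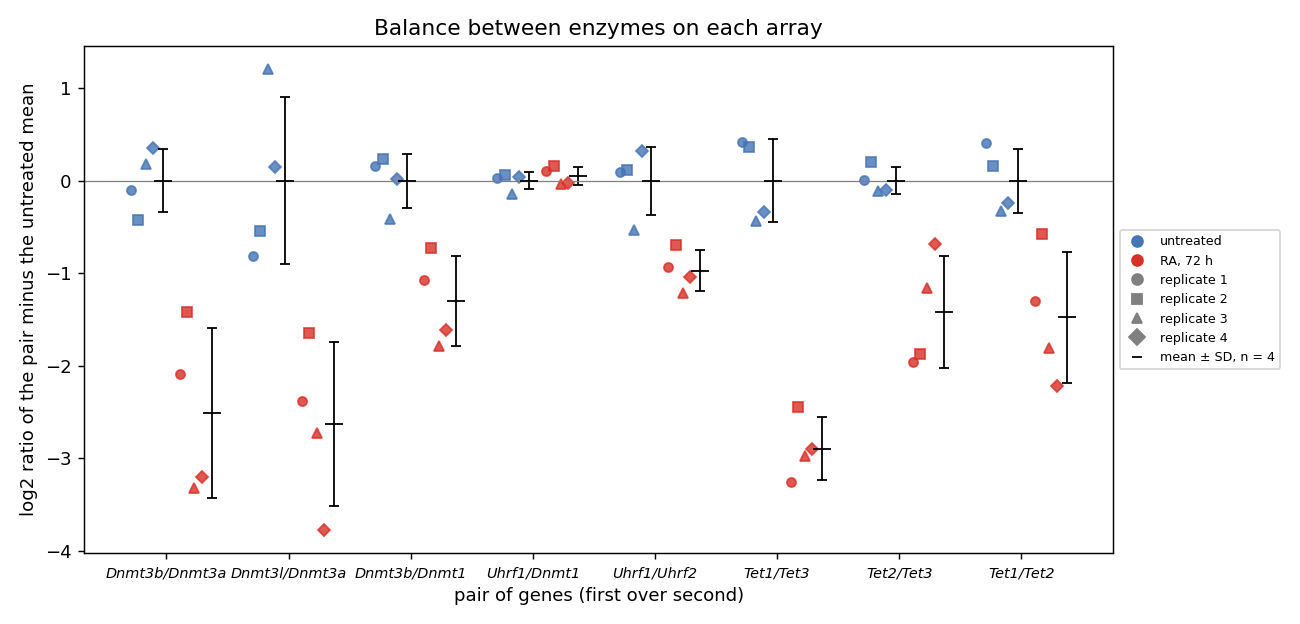
Log2 ratio of 8 pairs of members on each array, with the untreated mean of the pair set to 0 (vertical axis), for untreated (blue) and RA arrays (red), with marker shapes for replicates and black bars for the mean ± SD. For 7 pairs (horizontal axis) all RA arrays lie below all untreated arrays, and for *Uhrf1* over *Dnmt1* they overlap.

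The regions before the start sites of the 4 genes that fell are shown because all of them were called lower after RA. They are the 250 bases upstream of the annotated start from RefSeq (GRCm38.p6), 5′ to 3′ on the gene's strand, and for *Dnmt3l* the most upstream of its 3 listed starts. Which of these starts the cells used was not tested. Capitals mark letters that match, on either strand, the GC box GGGCGG, the hexamer AGGTCA, a single repeat unit of nuclear receptor elements, or the E2F core words TTCGCGC and TTGGCGC.
Dnmt3b, chr2:153649199-153649448, plus strand: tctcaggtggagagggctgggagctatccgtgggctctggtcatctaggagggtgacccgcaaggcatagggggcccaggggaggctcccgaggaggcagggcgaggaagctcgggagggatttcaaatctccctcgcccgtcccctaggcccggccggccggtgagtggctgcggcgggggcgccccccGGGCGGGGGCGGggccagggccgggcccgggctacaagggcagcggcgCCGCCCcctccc
Dnmt3l, chr10:78042037-78042286, plus strand: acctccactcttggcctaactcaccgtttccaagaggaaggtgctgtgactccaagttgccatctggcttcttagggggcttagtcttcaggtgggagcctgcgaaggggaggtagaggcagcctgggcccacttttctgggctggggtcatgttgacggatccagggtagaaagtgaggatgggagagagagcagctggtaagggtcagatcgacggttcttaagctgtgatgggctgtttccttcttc
Tet1, chr10:62887325-62887574, minus strand: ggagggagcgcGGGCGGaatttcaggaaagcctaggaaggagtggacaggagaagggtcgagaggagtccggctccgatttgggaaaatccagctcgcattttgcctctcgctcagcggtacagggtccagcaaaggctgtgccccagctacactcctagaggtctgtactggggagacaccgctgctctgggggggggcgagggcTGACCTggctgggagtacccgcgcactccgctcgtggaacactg
Tet2, chr3:133544391-133544640, minus strand: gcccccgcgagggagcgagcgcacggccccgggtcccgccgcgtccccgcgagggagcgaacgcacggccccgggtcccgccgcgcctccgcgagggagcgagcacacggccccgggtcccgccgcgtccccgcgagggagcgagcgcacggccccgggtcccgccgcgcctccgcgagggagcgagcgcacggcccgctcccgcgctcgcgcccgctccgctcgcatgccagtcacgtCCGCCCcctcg

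*Tet2* had 51 CpG sites in this window, *Dnmt3b* 21, *Tet1* 15 and *Dnmt3l* 5 at the printed start, where the median of all 32851 promoters in the table was 6. The other listed starts of *Dnmt3l* had 4 and 3 CpG sites. The GC box was found 3 times in *Dnmt3b* and once each in *Tet1* and *Tet2*, and 2 times before another start of *Dnmt3l* that is not printed. It occurs in 12 of the members' 17 listed promoters and in 32.7% of all promoters. These 17 promoters come from 10 genes, with overlapping windows for *Dnmt3a*. Their median was 17 CpG sites, and the GC box itself holds a CpG, so its share was not compared at equal CpG content. The nuclear receptor hexamer, present in 14% of all promoters, was found in 4 of the members' 17 listed promoters, in *Tet1*, which fell, and at starts of *Dnmt3a*, *Uhrf1* and *Uhrf2*, which were not called at their brightest probes. The E2F core occurs in 3.14% of all promoters and in 3 of the members' 17 listed promoters, those of *Dnmt1*, *Uhrf1* and *Uhrf2*. These are matches of letters, and binding to them was not measured on the arrays.

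The proteins that work with these enzymes were examined as 7 lists. Counts in each direction stand beside the 12.9% of all probes that were higher and the 21.6% that were lower, and list medians beside -0.28 for all probes. Since nearly all genes of the lists were above background, the shares of 20.9% and 31.0% among such probes apply to them as well.

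Among 8 proteins that read methylated CpG, 3 rose and 1 fell, with a median log2 fold change of 0.11. *Zbtb4*, a zinc finger protein that binds methylated DNA, rose 7.59-fold (log2 fold change 2.92 ± 0.21, SE, limma adjusted p = 1.5e-05). *Mbd2*, which recruits the NuRD complex to methylated DNA, rose 6.45-fold. *Mbd4*, a glycosylase that repairs mismatches at methylated CpG, fell 2.11-fold.

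In a list of 12 genes around maintenance methylation, not all of which assist it, 8 fell and 1 rose, with a median of -0.82. *Dppa3*, known for protecting methylation in the early embryo rather than for assisting maintenance, fell 63.9-fold. Its log2 level went from 2.10 ± 0.66 to -3.90 ± 1.07 (SD, n = 4). *Zfp57*, which holds methylation at imprinted regions, fell 2.73-fold, and *Cdca7*, the partner of the remodeller Hells, fell 2.04-fold. *Ehmt2*, a histone H3 lysine 9 methyltransferase, rose 1.52-fold. With quantile normalization 7 of the 12 were lower.

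Of 7 partners of Tet proteins and suppliers of their cofactor, 4 rose and 2 fell, with a median of 0.65. One of those that rose, *Idh1*, an isocitrate dehydrogenase, lost its call with the replicate block and with quantile normalization, which left 3. *Cxxc4*, a CpG-binding protein that pairs with Tet2, was not well above background on any untreated array and was at least 4.55-fold higher after RA. *Idh2*, the mitochondrial isocitrate dehydrogenase, rose 2.44-fold and *Ogt*, the O-GlcNAc transferase that binds Tet proteins, 1.95-fold. *Sin3a* fell 1.66-fold and *Hells* 1.64-fold.

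A list of 13 genes around base excision repair, which acts after Tdg, had 4 lower and 0 higher, with a median of -0.34. Of the probes above background on all arrays of at least 1 condition, 31.0% were lower. The list also holds other glycosylases and the *Gadd45* genes, which are not repair enzymes, and a *Gadd45* gene is among the 4 lower. At an unadjusted p under 0.05 in limma, no gene of this list was higher either. *Neil2*, a glycosylase, fell 4.07-fold, *Apex1*, the abasic site endonuclease, 2.67-fold and *Parp1* 2.22-fold. In the supply of S-adenosylmethionine, the methyl donor, 3 of 8 genes fell and 1 rose (median -0.25). *Mat2a*, which makes it, fell 3.47-fold, *Shmt1* 2.24-fold and *Shmt2* 1.82-fold, and *Mtr*, the methionine synthase, rose 1.71-fold.

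Of 14 genes of S phase and proliferation, the phase in which Dnmt1 and Uhrf1 act, 7 fell and 0 rose, with a median of -0.58. At an unadjusted p under 0.05 in limma none of these 14 was higher. *Mcm5*, a subunit of the replicative helicase, fell 3.03-fold, *E2f1*, an S phase transcription factor, 2.52-fold and *Mcm2* 2.20-fold. Quantile normalization left 4 of the 14 lower.

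Germline genes whose promoters are methylated in somatic cells had 7 of 13 lower and 2 higher, with a median of -1.34. *Hormad1* fell 12.6-fold, *Tex101* 11.8-fold and *Sycp3*, a component of meiotic chromosome axes, 6.81-fold, while *Ddx4*, the Vasa RNA helicase, rose 3.53-fold and *Mael* 1.56-fold. *Dpep3* and *Asz1*, both among the 7, were above background on 1 untreated array and on no RA array, and with such genes at their bounds the median was -0.29. With the authors' processed values 5 were lower and the median was likewise -0.29.

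**Figure D5:**
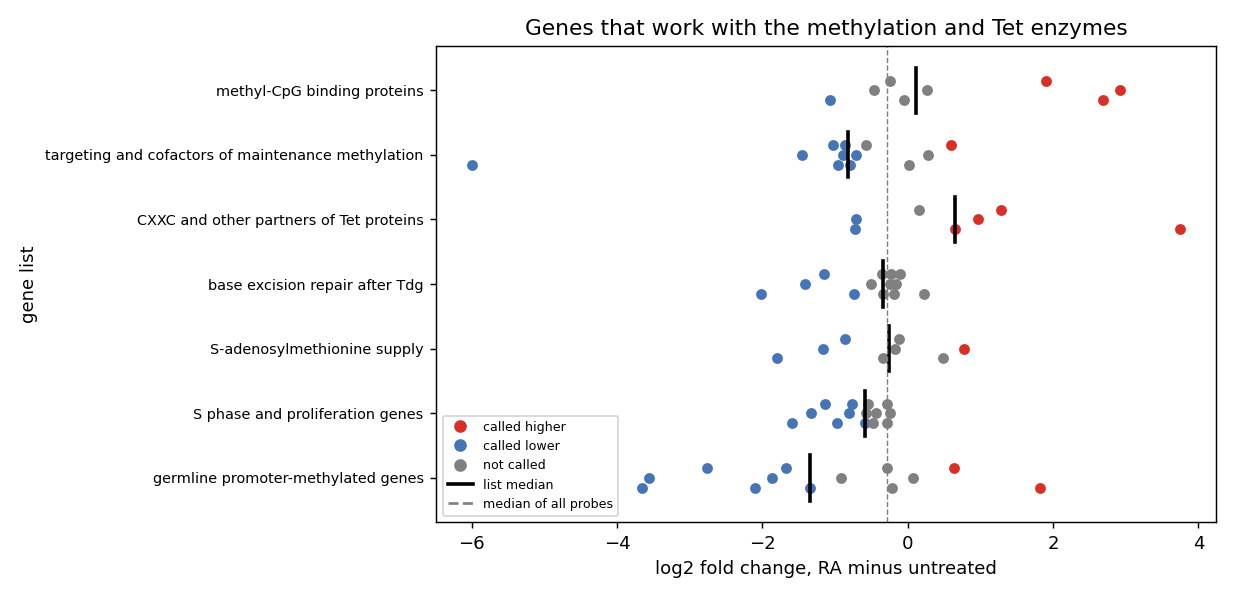
Log2 fold change, RA minus untreated (horizontal axis), of the genes of 7 lists (vertical axis), each point 1 gene, coloured by call, with a thick bar at the list median and a dashed line at -0.28, the median of all probes. Medians lie below the dashed line for germline genes (-1.34, or -0.29 with dim genes at their bounds), maintenance cofactors (-0.82), S phase genes (-0.58) and base excision repair (-0.34), and above it for partners of Tet proteins (0.65), methyl-CpG binding proteins (0.11) and the supply of S-adenosylmethionine (-0.25).

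For each member the probes of other genes whose log2 levels were most like it over the 8 arrays were searched among up to 16467 probes well above background. By Pearson r over the 8 arrays, *Tet1* was most like *Cobl* (0.998), *2310022A10Rik* and *Utp23*, and *Tet2* most like *2410002F23Rik* (0.998), *Angel1* and *Arl5c*. For *Dnmt3b* they were *Zdhhc18* (0.993), *Cisd1* and *Rilp*, and for *Dnmt3l* *Cd79b* (0.993), *Il1r2* and *Calca*. *Dnmt1* went with *Kctd14* (0.995), *Guca1b* and *Ttc38*, and *Uhrf1* with *Cxcl11* (0.989), *Hsbp1l1* and *Thoc2*. *Uhrf2* was most like *Zfp697* (0.985), *Ier5* and *Prkd3*, and *Tdg* most like *Trnp1* (0.992), *Megf9* and *Smarce1*. *Dnmt3a* had *Dhx40* (0.986), *St7l* and *Cisd3* as its nearest, and the brightest *Tet3* probe had *D14Ertd670e* (0.987), *Dnajb11* and *Lgals3*. For genes that differ between the conditions such values follow mainly the difference between 2 groups of 4 arrays, and they describe the pattern alone.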

How the data were processed

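The conditions and replicate numbers of the 8 arrays were taken from the labels. Per the file headers, Agilent Feature Extraction (version 10.7.3.1) gave the intensity of each spot, which the authors deposited corrected for background and detrended within the array but not normalized between arrays, and flags for dim, saturated and outlying spots. The authors also deposited log2 values of the same spots, which share 1 distribution on all arrays (median 6.76), so their scale is log2 while their background correction and normalization are not given in the sources used here. Probe positions are on mm9.

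In R (version 4.3.3) the log2 processed intensity was taken relative to the 75th percentile of the 59305 spots that are not controls. Control spots and outlier flags (124 to 145 spots an array) were left out and spots of a probe averaged, with no filter on dim probes. RA and untreated arrays were set against each other in limma (version 3.58.1), with p-values adjusted by Benjamini-Hochberg over 55681 probes, at an adjusted p under 0.05 and a fold change above 1.5 as in the study's methods. A gene took its brightest probe by the mean of all 8 arrays, and every member probe is named. In each list the called genes with the largest changes were named, at most 3 in each direction (1 gene so chosen is not reported here), and for each member the 3 most similar probes of other genes. A probe dim on all arrays of a condition has only a lower bound, set against the lowest signal well above background. The members and lists were chosen with earlier results of these data known.

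Each of 2 slides held 2 untreated and 2 RA arrays. The condition means were subtracted at 27491 probes above background throughout, and what remained of an untreated array and of the RA array with its number correlated at 0.187, 0.189, 0.104 and 0.151, from replicate 1 to replicate 4, so the numbers in the labels were taken to pair the samples. These correlations are weak, arrays of different numbers reached 0.142, and the labels do not tie a number to a culture or day. Alternatives were quantile normalization, normexp background correction with an offset of 50, both together, the authors' values, no dim probes, slide and replicate blocks, each slide alone, each array left out, a 2-fold limit and the mean of a gene's probes above background on all arrays of a condition. In simulated arrays for RA against untreated cells, 151 of 200 probes changed by a log2 value of 2 were recovered among 55640 probes, with 7 false calls. The simulated noise was independent between probes, and far fewer probes were changed than the 19240 called on the real arrays. These rates are thus not those of the real comparison.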

Additional observations from a re-analysis of the deposited data

Results flagged for a closer look

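Of 44 sets of 4 arrays examined (22 probes in 2 conditions), 3 held an array whose gap to its nearest neighbour was large for the range of the set by Dixon's test, where chance alone gives about 2.2 such sets. *Dnmt1* was at 1.84 in RA replicate 2, while the other RA arrays were between 1.53 and 1.57. The *Tet1* probe A_51_P512172 was at -0.53 in RA replicate 2, with the others between -1.54 and -1.51. The *Dnmt3b* probe A_55_P2130535 was at 5.09 in untreated replicate 3, with the others between 6.08 and 6.24.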

How the results depend on the processing

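The 4 members called lower numbered 3 within slide 1, 5 with the mean of a gene's probes (*Uhrf1* added) and 4 to 7 when an array was left out, and 7 without untreated replicate 3 and RA replicate 2 together, an alternative chosen after seeing the data. The number called higher, 1 (*Tdg*), was 2 with quantile normalization, alone or after normexp, and on the authors' processed values, where *Uhrf2* was added. It was also 2 with the mean of a gene's probes, but these were *Uhrf2* (0.88) and *Tet3*, and *Tdg* lost its call (0.26, limma adjusted p = 0.132). It was 0 with the 2-fold limit and within either slide, and 0 to 1 when an array was left out. All probes called were 10554 within slide 1 and 9417 within slide 2, against 19240. Over 190 values of single members and alternatives, 169 kept their direction and their side of the limits, 14 passed the limits only under the alternative, 6 lost the call and 1 reversed, *Tet3*, at 0.94 with the mean of its probes. *Dnmt3l*, *Tet1* and *Tet2* kept the call in all 19 alternatives, and *Dnmt3b* in all but slide 1.

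With the replicate block 1 member was higher, 4 were lower and 19384 probes were called, and of the genes of the 7 lists *Idh1* lost its call, so that 3 of the list of Tet partners and cofactor suppliers rose. For the ratios the paired test over 4 pairs cannot go below an exact p of 0.125, which it gave at the same values: -2.51 for *Dnmt3b* over *Dnmt3a*, -2.64 for *Dnmt3l* over *Dnmt3a*, -1.30 for *Dnmt3b* over *Dnmt1*, -0.97 for *Uhrf1* over *Uhrf2*, -2.90 for *Tet1* over *Tet3*, -1.42 for *Tet2* over *Tet3* and -1.48 for *Tet1* over *Tet2*. With an array left out the ratios ranged, in the same order, from -2.88 to -2.24, -2.96 to -2.23, -1.49 to -1.14, -1.15 to -0.87, -3.05 to -2.76, -1.67 to -1.24 and -1.78 to -1.23, and in 6 of these 7 pairs the exact permutation p was 0.0571 without at least 1 array. *Uhrf1* over *Dnmt1* passed the test with quantile normalization (0.22), after normexp and quantile normalization (0.23) and on the authors' values (0.23). The cause of these shifts was not tested. The size of the change at A_55_P2074075 of *Tet2* and at the rising probes of *Tet3* depended on the background correction.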
